A study of Mus musculus with 10 samples.

Results

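The potassium channel genes are those whose symbol in the platform annotation starts with Kcn. Their members are pore-forming subunits, auxiliary subunits and 2 non-coding RNAs named after neighbouring channel genes. Of 84 such genes with a probe set that named 1 gene only, 66 were taken as members, out of 13219 genes tested in all. Each gene was represented by its brightest probe set, and a gene was a member where the mean of log2(signal + 22) over the 10 arrays was above 6.47, so membership used the level and not the treatment. Just below that mean lay Kcnj14 (6.21), Kcns1 (6.39) and Kcnk16 (6.47), and just above it Kcnh8 (6.51), Kcna7 (6.53) and Kcnk3 (6.72).

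The arrays measured hippocampal RNA of mice 3 weeks old. Wild-type mice (C57BL6 F1/J, a strain that the labels leave out for 2 of their arrays) received saline or kainate at 14 mg/kg. Mice of 1 transgenic line (TetO-A-CREB-95 C57BL6 F1/J) received saline, kainate at 14 mg/kg or kainate at 18 mg/kg. Kainate is a glutamate receptor agonist that provokes seizures. A-CREB is a dominant-negative protein that blocks binding of CREB, the cAMP-responsive transcription factor, to DNA. Its transgene lies under a tetracycline-controlled promoter, whose driver the labels leave out, as they do the interval between injection and dissection. No wild-type group received 18 mg/kg. Each of the 5 groups had 2 arrays, named replicate 1 and replicate 2, and each array held a pool of RNA from 3 to 4 mice (14 wild-type and 20 A-CREB mice in all). Errors and p-values therefore measure the spread between pools.

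Potassium channels set the resting potential of neurons, repolarise action potentials and damp repetitive firing, and loss of several of them causes epilepsy. Voltage-gated (Kv) channels are tetramers of pore-forming subunits with attached auxiliary subunits. Inward rectifiers and two-pore leak channels act near rest, and calcium- and sodium-activated channels follow the ions that enter during firing. In the hippocampus, Kv1 channels lie in axons, Kv4 channels in dendrites, and the KCNQ channels of the M-current near the axon's initial segment.

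The kainate arrays carried a strong response of activity-dependent genes, which served as a check. The transcription factors Fos and Npas4 rose by 3.39 and 5.93 on the log2 scale over both genotypes (adjusted p = 8.89e-06 and 5.08e-07). The median signal was 94.9 to 106 on arrays numbered 1 and 135 to 152 on arrays numbered 2, while the trimmed mean was equal on all. Summed markers of all neurons ran from 72741 to 96403 and those of astrocytes from 46568 to 56087. Choroid plexus markers were present on every array (7 of 8 matched, summed signal 24680 to 44388). Striatal markers (6 of 8 matched) summed to 12863 on wild-type kainate replicate 2 and to 3430 to 5735 on the other arrays.

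The transgene acts on a factor that binds DNA, so 2 promoters are shown. Kcnf1 was 1 of 2 members called after kainate, in the fit with the replicate number as a block. The other, Kcng1, had no window among those from RefSeq. Kcne4 had the widest genotype difference over both treatments. The promoters are the 250 bases before the gene's start in RefSeq (GRCm38.p6), 5′ to 3′ on the gene's strand. Capitals mark TGACG, the part of the cAMP response element shared by its full and shortened forms, searched on both strands. The Kcne4 promoter, at chr1:78816661-78816910 on the + strand, holds 1 match, 50 bases before the start. The Kcnf1 promoter, at chr12:17176889-17177138 on the - strand, holds none.
Kcne4: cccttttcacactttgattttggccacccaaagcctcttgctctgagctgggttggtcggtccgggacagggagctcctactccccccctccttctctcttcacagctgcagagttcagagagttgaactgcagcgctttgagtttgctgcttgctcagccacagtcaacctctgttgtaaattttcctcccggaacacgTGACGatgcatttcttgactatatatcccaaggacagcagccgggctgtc
Kcnf1: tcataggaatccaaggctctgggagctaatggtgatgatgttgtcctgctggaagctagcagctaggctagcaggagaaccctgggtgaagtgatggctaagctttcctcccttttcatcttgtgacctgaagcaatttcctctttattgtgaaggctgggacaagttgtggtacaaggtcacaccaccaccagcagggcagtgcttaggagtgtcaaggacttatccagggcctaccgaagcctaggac
For 51 of the 66 members the RefSeq table had a window, 75 windows in all. The letters TGACG, on either strand, stood in 12 of them (16%), against 17.8% of all 32851 windows. The full element TGACGTCA, which contains TGACG and reads the same on both strands, stood in 0 of the 75, against 1.55% of all windows. Besides Kcne4, the genes with a match were Kcna6, Kcnab2, Kcnc1, Kcnc4, Kcne2, Kcnj13, Kcnj4, Kcnj8, Kcnn1, Kcnq1ot1 and Kcnt2.

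Between kainate at 14 mg/kg and saline, most fitted differences of the potassium channel genes were small, with 2 pools a group. Over both genotypes the median difference of the 66 members was -0.10 on the log2 scale, against -0.04 over all genes, and 23 members lay above 0 and 43 below. In the fit without the replicate number, 0 members passed an adjusted p of 0.05 by limma, where 0.696% of all genes did, and 5 members (Kcnf1, Kcng1, Kcnq5, Kcne4 and Kcnmb4os2) had an unadjusted p under 0.05, against 7.33% of all genes (13 with the block, against 16.3%). With the replicate number as a block, 2 of 66 passed (3.03%, against 2.87% of all genes), which is near the background. They were Kcnf1, higher after kainate (1.91% of all genes), and Kcng1, lower (0.968%). Of the 66 members, 60 (90.9%) had a fitted difference within 0.5 of 0, against 94.6% of all genes. The median standard error of this comparison was 0.20 (0.15 with the block). In wild type 17 members (25.8%, against 16.6% of all genes) were lower after kainate without overlap, and 4 higher (6.06%, against 10.2%). In A-CREB mice at 14 mg/kg 14 were lower (21.2%, against 16%) and 11 higher (16.7%, against 13%). In bulk tissue, fewer cells of a type and less RNA per cell cannot be told apart.

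**Figure D1:**
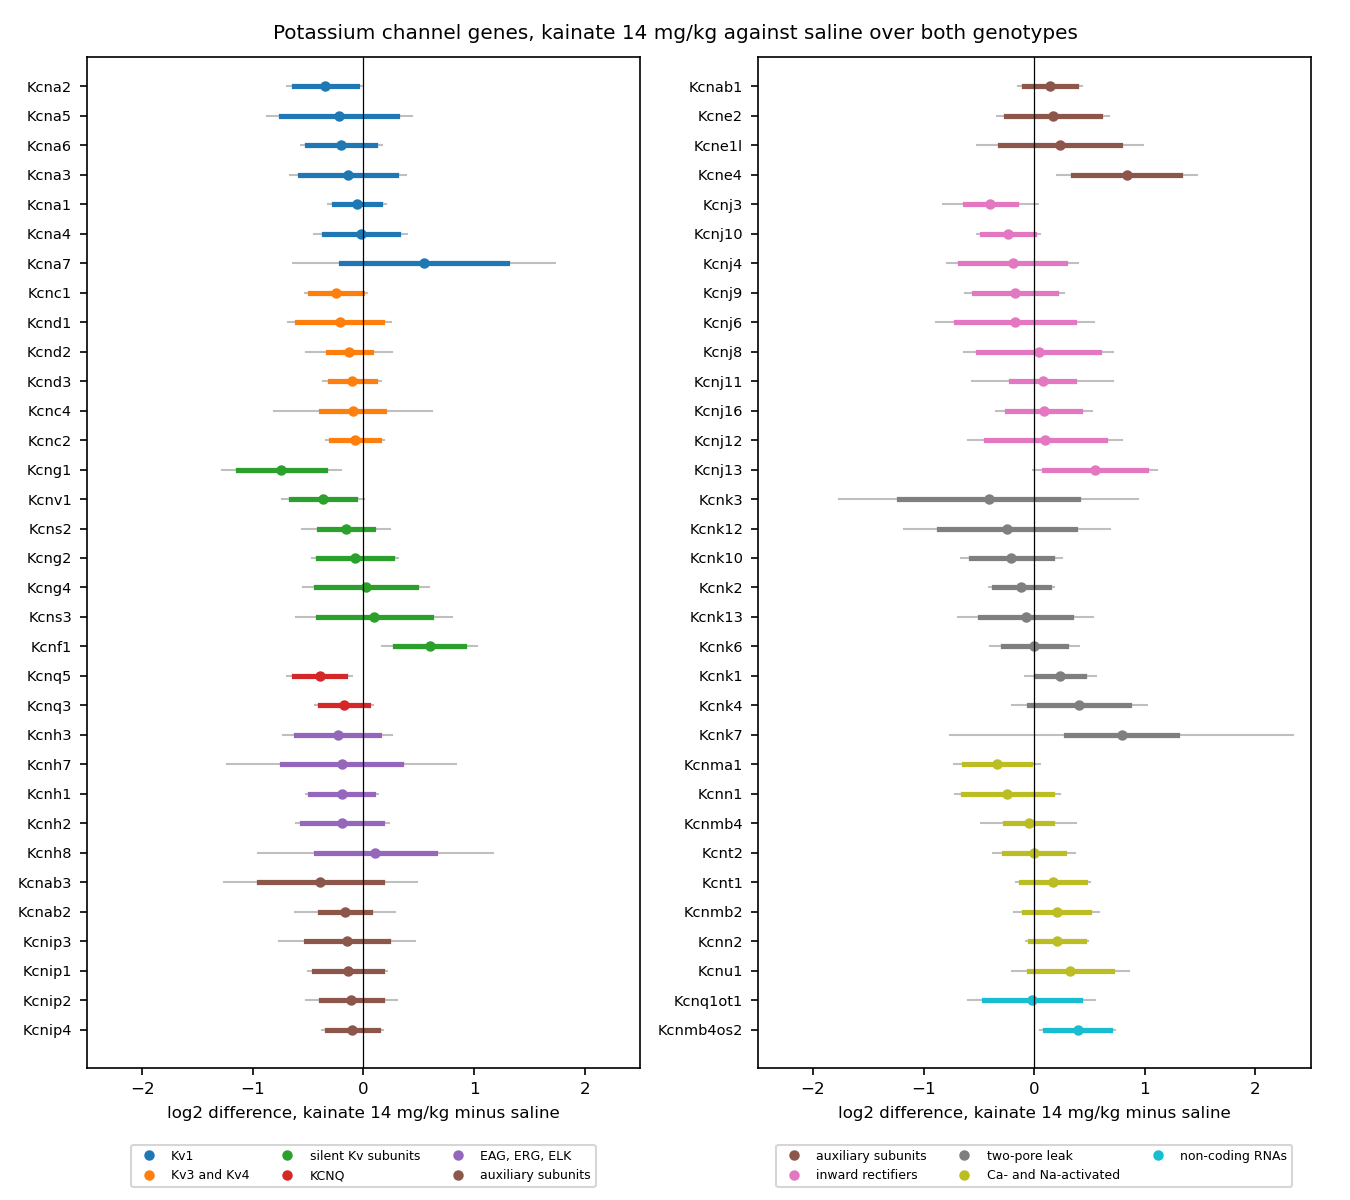
Log2 difference between kainate at 14 mg/kg and saline over both genotypes for each of the 66 genes, ordered by role (colours). Points are fitted differences, thick bars the 95% intervals of the fit with the replicate number as a block and thin grey bars those of the fit without it. Kcnf1 (0.60) and Kcng1 (-0.74) are the pair that passed with the block, and most other intervals include 0.

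The electrically silent Kv subunits do not form channels alone but join Kv2 subunits and change their gating. There were 7 of them measured, with a median difference of -0.08 over both genotypes. Kcnf1 had signals of 944 and 604 in wild-type saline, 1114 and 876 in wild-type kainate, 804 and 552 in A-CREB saline, 1303 and 1093 in A-CREB kainate at 14 mg/kg, and 801 and 1020 at 18 mg/kg (replicates 1 and 2 in each group). The wild-type groups overlapped, while both A-CREB arrays at 14 mg/kg were above both A-CREB saline arrays, as in 13% of all genes. The difference over both genotypes was 0.60 (SE 0.19, n = 4 arrays a side) on the log2(signal + 22) scale, a 1.51-fold ratio. It missed the threshold without the block (adjusted p = 0.409) and passed with it (adjusted p = 0.0392), by limma. With the block, the call held in 3 of 10 fits that left out 1 array, with adjusted p from 0.0135 to 0.221, and was lost without either wild-type saline array, either kainate array of wild type, A-CREB saline replicate 2 or either A-CREB array at 14 mg/kg. Within replicate 1 the difference was 0.46, and within replicate 2 it was 0.74. By genotype it was 0.38 in wild type and 0.82 in A-CREB mice, and the difference between the 2 responses was not called (0.44, SE 0.38). At 18 mg/kg the difference from A-CREB saline was 0.43 (SE 0.27). Leaving out 1 array moved the wild-type value between 0.06 and 0.69 and that at 18 mg/kg between 0.17 and 0.69 (0.04 to 0.81 with the block).

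A second probe set of Kcnf1 gave a larger difference. On the log2(signal + 22) scale it read 8.28 and 7.67 in wild-type saline, 8.98 and 8.97 in wild-type kainate, 8.31 and 7.26 in A-CREB saline, and 9.05 and 8.94 in A-CREB kainate at 14 mg/kg. All 4 kainate arrays lay above all 4 saline arrays. In a fit with each probe set on its own, the difference over both genotypes was 1.10 (adjusted p = 0.154, and 0.0145 with the block). The first probe set had an adjusted p of 0.0810 in that blocked fit.

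Kcng1, another silent subunit, went the other way. Its signals were 516 and 736 in wild-type saline, 480 and 417 in wild-type kainate, 720 and 428 in A-CREB saline, 327 and 204 in A-CREB kainate at 14 mg/kg, and 459 and 272 at 18 mg/kg. Every array at 14 mg/kg was below both saline arrays of its genotype (background 16.6% in wild type and 16% in A-CREB mice). However, wild-type kainate replicate 1 was above A-CREB saline replicate 2. Over both genotypes the difference was -0.74 (SE 0.24), a ratio of 0.598. The adjusted p was 0.420 without the block and 0.0443 with it. The blocked call held in 4 of 10 fits that left out 1 array, with adjusted p from 0.00409 to 0.217. The difference was -0.59 within replicate 1 and -0.89 within replicate 2. In wild type it was -0.44 (SE 0.34) and in A-CREB mice -1.04 (SE 0.34), with no call of the difference between them (-0.60, SE 0.48). Leaving out 1 array moved the wild-type value between -0.69 and -0.20 without the block, and to 0.09 with it. Only this probe set of Kcng1 was tested, since the other was dim (4.57 to 5.38 on the log2 scale). Summed dentate granule cell markers were 6558 and 7140 on the A-CREB arrays at 14 mg/kg and 6804 to 8531 on the others, and their part in the result was not tested. Of the other silent subunits, Kcns2 differed by -0.16, less than its SE of 0.18, and none of the 5 was called.

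The KCNQ subunits carry the M-current, a slow current that restrains repetitive firing. Kcnq5 had signals of 1114 and 1325 in wild-type saline, 822 and 1004 in wild-type kainate, 1195 and 1429 in A-CREB saline, and 980 and 1017 in A-CREB kainate at 14 mg/kg. All 4 kainate arrays lay below all 4 saline arrays, which made Kcnq5 the 1 member lower without overlap (background 3.49%). The difference was -0.40 (SE 0.13), with an adjusted p of 0.426 (0.0689 with the block), so it was not called. It was similar in size in wild type (-0.41) and A-CREB mice (-0.38), and -0.19 at 18 mg/kg, where signals were 1173 and 1111. A second probe set gave -0.29 (SE 0.16), with overlap. On the log2 scale it read 9.21 and 9.06 in wild-type saline and 8.65 and 9.13 in wild-type kainate. Kcnq3, its partner in the channel, differed by -0.17, with an interval of -0.44 to 0.09. The 1 member higher without overlap (background 2.66%) was the non-coding RNA Kcnmb4os2, at 237 and 230 in wild-type saline and 311 and 337 after kainate, with 299 and 233 against 360 and 326 in A-CREB mice. Its difference of 0.39 (SE 0.15) was not called (adjusted p = 0.564).

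Kv1 subunits, which shape the action potential in axons, had 7 members, 1 above 0 and 6 below over both genotypes, with a median of -0.14 and 0 called. Kcna1, whose loss causes seizures in mice, differed by -0.06, with an interval of -0.32 to 0.20. The other tested probe sets of Kcna1 were above 0 over both genotypes. Kcna2 differed by -0.34 (SE 0.15), and Kcna4, an A-type subunit, by -0.02 (-0.44 to 0.40). A second Kcna4 probe set, equally bright (8.28), was higher on average after kainate, with overlap in both genotypes. On the log2 scale it read 7.68 and 8.54 in wild-type saline and 8.43 and 8.61 in wild-type kainate. In A-CREB mice it read 8.07 and 8.33 after saline and 7.98 and 8.90 at 14 mg/kg. The fast delayed rectifiers of the Kv3 family and the A-type Kv4 family had 6 members. On the probe sets used, all had fitted differences below 0 (median -0.11) and 0 were called. The other tested probe sets of Kcnd1, a Kv4 subunit, were above 0. Kcnd2, the main dendritic A-type subunit, had 3007 to 4603 on all arrays and differed by -0.13, with an interval of -0.51 to 0.26. Kcnc1 and Kcnc2, subunits of fast-spiking neurons, differed by -0.25 (SE 0.12) and -0.08 (SE 0.12). The EAG, ERG and ELK group had 5 members, 4 of them below 0, with a median of -0.19. Kcnh1 had signals of 937 and 722 in wild-type saline and 566 to 797 on the other arrays, where wild-type kainate replicate 2 exceeded 1 of the saline arrays. Its kainate difference over both genotypes was -0.19 (-0.52 to 0.13). Kcnh3, an ELK subunit of forebrain neurons, had 437 to 1043 on all arrays and differed by -0.23 (-0.72 to 0.26).

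Auxiliary subunits attach to Kv channels and alter their gating or traffic, and 10 were measured. Kcnab1, a beta subunit that gives Kv1 channels fast inactivation, was the only member with an unadjusted p under 0.05 in wild-type kainate against wild-type saline, without the block (3.53% of all genes had one, and 8 members against 9.75% of all genes with the block). Its signals were 3023 and 2531 in wild-type saline, 3312 and 4151 in wild-type kainate, 2530 and 3086 in A-CREB saline, and 2500 and 2588 in A-CREB kainate at 14 mg/kg. The wild-type groups did not overlap (background 10.2% higher), and wild-type kainate replicate 2 was the highest of all 10 arrays. The difference was 0.42 (SE 0.18), with an adjusted p of 0.9999, and in A-CREB mice it was -0.13. The array that was highest is the one with the high striatal markers, and without it the difference was 0.26, with the part of those markers not tested. A second Kcnab1 probe set did not separate those groups, with 10.11 and 9.17 in wild-type saline and 9.81 and 9.84 in wild-type kainate. In that comparison 0 members were called, against 0.182% of all genes, or 0.711% with the block. On the probe sets used, all 4 calcium-binding Kcnip subunits, partners of Kv4 channels, were below 0 over both genotypes and none was called. In wild type alone Kcnip1 and Kcnip2 were above 0. Among the other tested probe sets, some of Kcnip2 and Kcnip4 were above 0 over both genotypes. Kcnip3, which also acts as a transcriptional repressor, differed by -0.15, with an interval of -0.76 to 0.47.

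The inward rectifiers had 10 members, 5 above and 5 below 0. Kcnj3, a pore subunit of the G-protein-gated channels, had signals of 1518 and 2161 in wild-type saline, 1235 and 1709 in wild-type kainate, 1880 and 2080 in A-CREB saline, and 1116 and 1786 in A-CREB kainate at 14 mg/kg. The wild-type groups overlapped and the A-CREB groups did not (background 16% lower). Its difference over both genotypes was -0.40 (SE 0.19), with an adjusted p of 0.734 (0.0715 with the block). Its other tested probe sets gave -0.45 and -0.18. Kcnj10, the astrocytic channel that clears potassium after firing, had 881 to 1234 on all arrays and differed by -0.23, with an interval of -0.52 to 0.05.

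The two-pore leak channels had 9 members with a median of -0.08 and 0 called. Kcnk1, a weak leak channel that is widespread in brain, had signals of 3755 to 6191 and differed by 0.24 (-0.09 to 0.56). Kcnk2, a leak channel opened by stretch and lipids, had 1056 to 1411 and differed by -0.12 (-0.41 to 0.18). The calcium- and sodium-activated channels and their beta subunits had 8 members, 4 on each side of 0. Kcnma1, the pore of the large-conductance channel that ends action potentials, differed by -0.34, with an interval of -0.72 to 0.05. Kcnn2, a small-conductance channel opened by calcium, differed by 0.21 (-0.08 to 0.49). Kcnmb4, a beta subunit of the large-conductance channel, differed by -0.05 (-0.49 to 0.38). None of these intervals excluded 0 without the block.

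**Figure D2:**
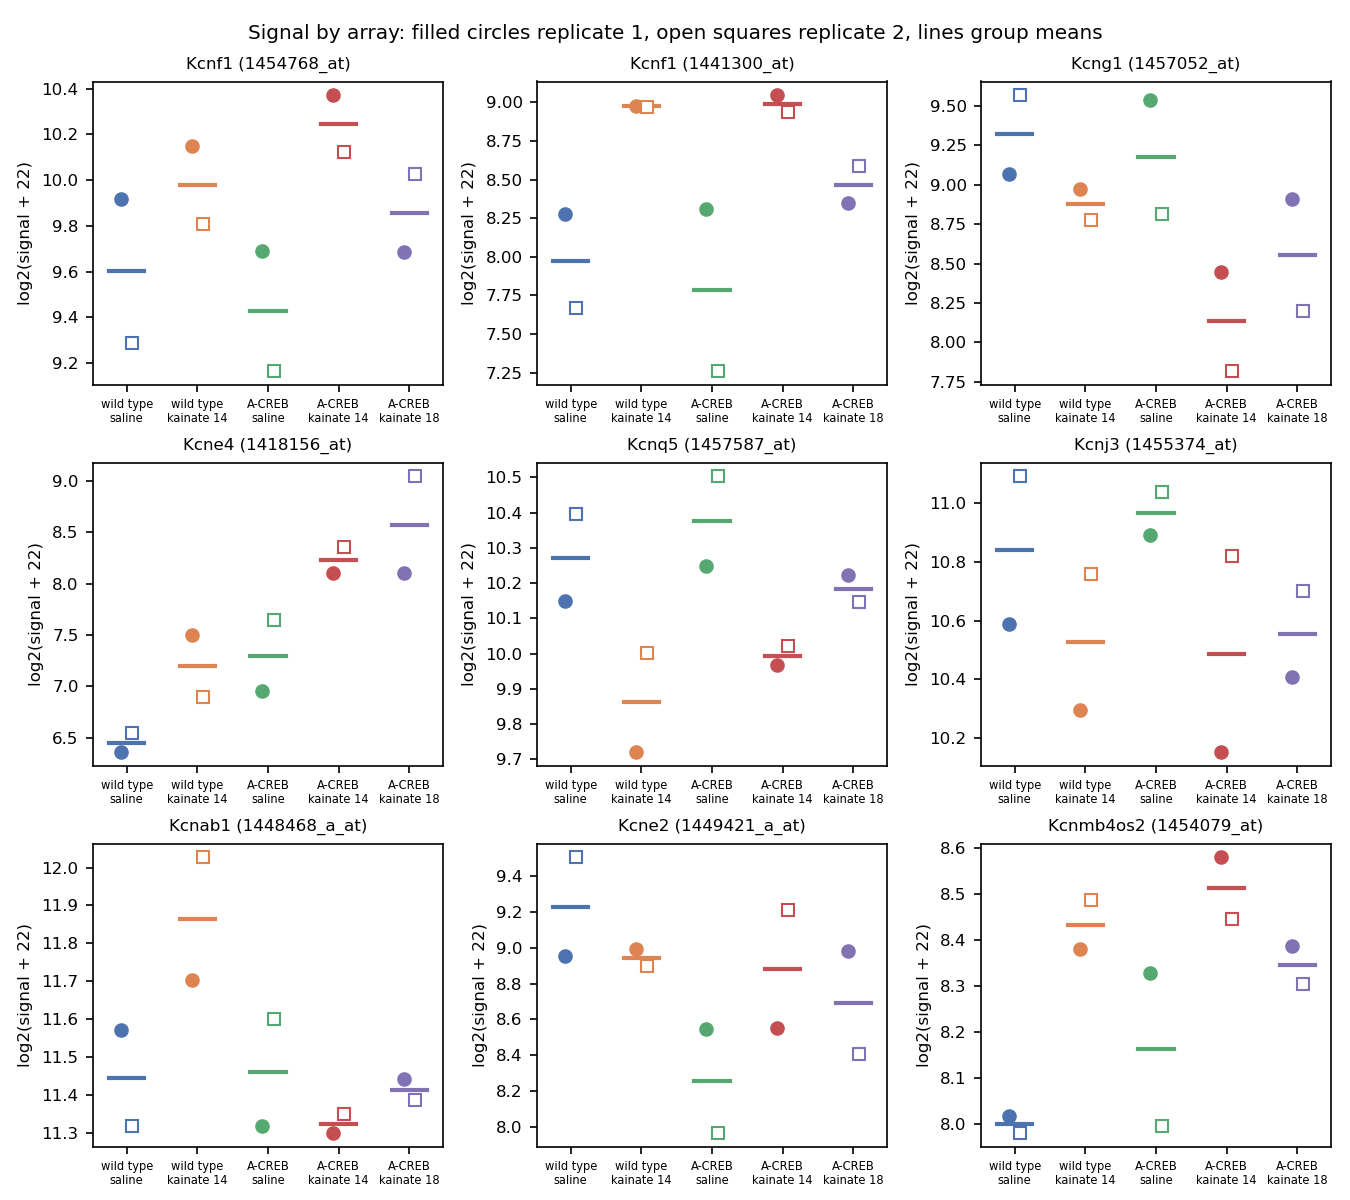
Value of each array on the log2(signal + 22) scale for 8 members (Kcnf1 with both of its probe sets) in the 5 groups. Filled circles are replicate 1, open squares replicate 2 and lines group means, and each panel has its own axis. Kcne4 runs from 6.36 in wild-type saline to 9.04 in A-CREB kainate at 18 mg/kg, and Kcnq5 is lower on every array at 14 mg/kg than on the saline arrays.

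In A-CREB mice given 14 mg/kg, 0 members were called, against 0.31% of all genes (1.26% with the block), and 4 had an unadjusted p under 0.05, against 4.99% of all genes (10 with the block, against 11.8%). They were Kcnf1, Kcng1, Kcne4 and Kcnj13. At 18 mg/kg 0 members were called, against 0.235% (0.696% with the block), and Kcne4 and Kcnh2 had an unadjusted p under 0.05, against 2.79% of all genes (9 members with the block, against 8.95%). The members' median at 18 mg/kg was -0.04, against 0.00 over all genes. By role it ran from -0.23 for the 7 Kv1 subunits (2 above and 5 below 0) to 0.16 for the 8 calcium- and sodium-activated channel genes (5 above and 3 below), leaving out the roles with 2 members. Between the doses 0 of 66 members were called, nor were any of the 13219 genes, with or without the block, and the members' median difference was 0.03. Without the block, Kcnh2 alone among the members had an unadjusted p under 0.05 there, against 0.567% of all genes (2 with the block, against 3.03%). Kcnh2, an ERG channel subunit, had signals of 297 and 283 in A-CREB saline, 305 and 235 at 14 mg/kg, and 129 and 217 at 18 mg/kg. Both arrays at 18 mg/kg were below the other 4 (background 12.2% against saline and 7.24% against 14 mg/kg), and replicate 1 was the lowest. Its difference from saline was -0.72 (SE 0.27, adjusted p = 0.9999) and from 14 mg/kg -0.61 (SE 0.27). Kcnip1 was at 798 and 763 in A-CREB saline and at 528 and 575 at 18 mg/kg, a difference of -0.49 (SE 0.23) that was not called. A second Kcnip1 probe set went the other way, at 8.87 and 8.63 in A-CREB saline and 8.95 and 8.82 at 18 mg/kg on the log2 scale (0.13, SE 0.24).

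Over both treatments Kcne4 had the widest difference between the genotypes of the 66 members. It encodes a single-span auxiliary subunit that inhibits KCNQ1 and some Kv1 channels. Its signals were 60.2 and 71.2 in wild-type saline, 158 and 97.2 in wild-type kainate, 102 and 178 in A-CREB saline, 252 and 305 in A-CREB kainate at 14 mg/kg, and 252 and 506 at 18 mg/kg. All 4 A-CREB kainate arrays were above every other array, and both wild-type saline arrays were the lowest. Wild-type kainate and A-CREB saline overlapped. Over saline and 14 mg/kg, A-CREB mice had 0.94 more on the log2 scale (SE 0.28), a 1.91-fold ratio, and the smallest unadjusted p among the members (0.00796). It was not called (adjusted p = 0.9996, and 0.311 with the block). The genotype difference was 0.84 (SE 0.40) after saline and 1.03 (SE 0.40) after kainate. It was 0.60 within replicate 1 and 1.28 within replicate 2. Kainate against saline gave 0.74 in wild type, 0.93 in A-CREB mice at 14 mg/kg and 1.28 (SE 0.40, adjusted p = 0.9999) at 18 mg/kg, and 0.84 over both genotypes (adjusted p = 0.446, and 0.0673 with the block). Summed microglial markers (8 of 8 measured) were 10701 to 12258 on the wild-type arrays, 12471 and 14235 in A-CREB saline, and 13671 to 17761 on the A-CREB kainate arrays. Endothelial and mural markers (8 of 8 measured) ran from 5556 to 6645. The part of either list in the Kcne4 values was not tested.

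Between the genotypes 0 of 66 members were called in saline, after 14 mg/kg, or over both. Of all genes 0 were called in these comparisons without the block. With it 0% were called in saline, 0.0378% after kainate and 0.0303% over both, and 0 members. Over both treatments Kcne4, Kcnk6 and Kcne2 had an unadjusted p under 0.05 without the block, against 2.03% of all genes. With it 10 members did (15.2%, against 6.58%), 8 of them lower in A-CREB mice (12.1%, against 3.6%). Leaving out single arrays moved both that blocked count and the share of all genes. The count fell without replicate 2 of A-CREB saline or replicate 2 of A-CREB mice at 14 mg/kg. Without the array with striatal markers it also fell, and fewer of those members were lower in A-CREB mice. The members' median over both treatments was -0.10, against -0.02 over all genes. The auxiliary subunits had the lowest median by role (-0.22, with 3 above and 7 below 0), and the inward rectifiers the highest (0.03, with 6 above and 4 below). In saline 3 members had an unadjusted p under 0.05 without the block, against 1.48% of all genes, all lower in A-CREB mice, and 7 had with the block (5.61% of all genes). Without A-CREB saline replicate 2 the unblocked count was 0. Kcna6, a Kv1 subunit, had 605 and 868 in wild type and 512 and 442 in A-CREB mice, a difference of -0.59 (SE 0.23). Its other tested probe sets gave 0.01 (SE 0.29) and -0.61 (SE 0.54), and the former overlapped, with 8.52 and 7.84 in wild type and 8.29 and 8.09 in A-CREB mice. Kcnq1ot1, the non-coding RNA that silences an imprinted cluster, had 331 and 177 in wild type and 161 and 95.1 in A-CREB mice (-0.86, SE 0.36). Its other tested probe set gave -0.44 (SE 0.50) with overlap, at 7.86 and 6.39 in wild type and 6.47 and 6.90 in A-CREB mice. On the probe sets used here neither pair of groups overlapped (background 13.1% lower), and each had an adjusted p of 0.9999.

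The third was Kcne2, an auxiliary subunit that is strongly expressed in the choroid plexus. It had 474 and 705 in wild-type saline, 351 and 228 in A-CREB saline, 488 and 455 in wild-type kainate, and 354 and 571 in A-CREB kainate at 14 mg/kg. The saline groups did not overlap (background 13.1% lower) and the kainate groups did. The saline difference was -0.97 (SE 0.32) and that after kainate -0.06 (SE 0.32). Kcnj13, an inward rectifier of the same epithelium, had 913 and 1501 in wild-type saline, 737 and 674 in A-CREB saline, 1162 and 1664 in A-CREB kainate at 14 mg/kg, and 1404 and 678 at 18 mg/kg. On the log2 scale Kcnj13 read 9.87 and 10.57 in wild-type saline and 10.57 and 10.15 in wild-type kainate. The A-CREB groups at saline and 14 mg/kg did not overlap (background 13% higher), while those at the 2 doses did. The former differed by 0.96 (SE 0.35, adjusted p = 0.858). Summed choroid plexus markers were 33236 and 26626 in A-CREB saline, 39660 and 30635 at 14 mg/kg, and 39739 and 24680 at 18 mg/kg. These markers summed to 32656 and 30406 in wild-type saline and 44388 and 31196 in wild-type kainate. Their part in the Kcne2 and Kcnj13 values was not tested.

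After kainate at 14 mg/kg, 4 members had an unadjusted p under 0.05 between the genotypes, against 1.27% of all genes. With the block 9 did (13.6%, against 4.98%), 7 of them lower in A-CREB mice (10.6%, against 2.46%). Without the wild-type kainate array that carries the striatal markers, the blocked count was 4, with 2 of them lower, against 3.37% of all genes. Kcne4 is given above. Kcnab1 was lower in A-CREB mice by 0.54 on the log2 scale (SE 0.18), with the striatal markers of 1 wild-type array beside it as above. Kcnk6, a two-pore channel, had 243 and 354 in wild-type kainate and 446 and 461 in A-CREB kainate (0.59, SE 0.25). These groups did not overlap (background 9.99% higher). Kcng2, a silent subunit named here after its values were seen, had 410 and 662 in wild-type kainate and 367 and 327 in A-CREB kainate, a difference of -0.56 (SE 0.25). Its high array is again the one with the striatal markers, without which the difference was -0.23 (SE 0.25). Without that array Kcnab1 differed by -0.38, Kcnk6 was the 1 member with an unadjusted p under 0.05 (1.29% of all genes), and the part of the markers was not tested. Each of the 4 had an adjusted p of 0.9999 without the block, and the lowest with it was 0.671. The difference between the kainate responses of the genotypes was called for 0 of 66 members and for 0 of all genes, with or without the block. Without the block 0 members had an unadjusted p under 0.05 in that test, against 0.726% of all genes, and with the block 5 did, against 3.58%. The standard error of that test had a median of 0.40 over the members. There 16 of the 66 members had a fitted difference of 0.5 or more in size, none with an unadjusted p under 0.05 without the block. Within 0.5 of 0 lay 75.8% of the members, against 88.7% of all genes.

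**Figure D3:**
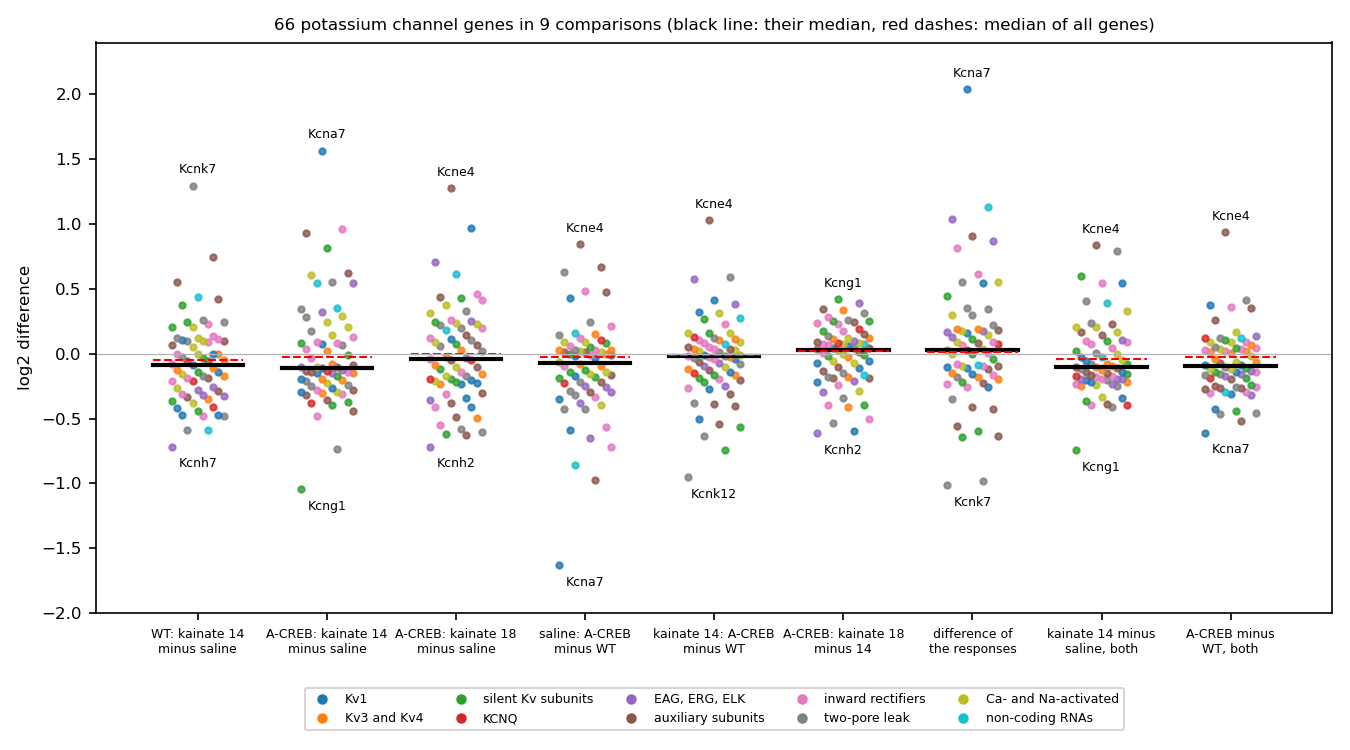
Log2 differences of the 66 members in each of the 9 comparisons, coloured by role, with the members' median (black) and the median of all genes (red dashes). The highest and lowest gene of each comparison is named. The medians lie between -0.11 and 0.03, and Kcne4 is the highest member in 5 comparisons.

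The widest differences in that plot belong to Kcna7, a dim gene. Not every gene at an extreme was dim. Kcng1, with a mean of 8.81 on the log2 scale, was the lowest member after kainate in A-CREB mice at 14 mg/kg and over both genotypes. Kcna7, a subunit best known from muscle, had 39.4 and 282 in wild-type saline, 17.7 and 27.3 in A-CREB saline, and 109 on both A-CREB arrays at 14 mg/kg. The first pair spans most of the range of the gene, and a value near 22 is compressed by the added 22. The resulting differences of -1.63 in saline (SE 0.75) and 1.57 in A-CREB mice (SE 0.75) were not called.

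More members differed by replicate number than by treatment. In the blocked fit 14 of 66 members (21.2%) differed between numbers 2 and 1, against 34.9% of all genes. In replicate 2, 8 members were higher (12.1%, against 20.6% of all genes) and 6 lower (9.09%, against 14.3%). The labels give these numbers no meaning. Kcnk7, a two-pore family member chosen after its values were seen, was higher by 1.77 (SE 0.21, adjusted p = 8.15e-05) and higher in 5 of 5 groups. Kcnc4, a Kv3 subunit chosen likewise, was lower by 0.80 on the log2 scale (SE 0.12) in 5 of 5 groups. Kcnj11, the pore of the ATP-sensitive channel, had 882 to 1299 on arrays numbered 1 and 1486 to 1953 on those numbered 2, without overlap (0.68, SE 0.12, adjusted p = 0.000899). Kcnd2 was higher by 0.39 (SE 0.08), and Kcnab2, a beta subunit, and Kcnmb4, the neuronal subunit of the large-conductance channel, were lower by 0.45 and 0.44 (SE 0.09 each). In replicate 2, 12 members were higher in each of the 5 groups and 4 lower in each, with no share of all genes counted. Probe sets of 1 gene could differ in this, since that of Kcna1 used here had 11.64 to 12.11 with no order by number, whereas another had 11.40 to 11.58 in replicate 1 and 11.97 to 12.40 in replicate 2.

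**Figure D4:**
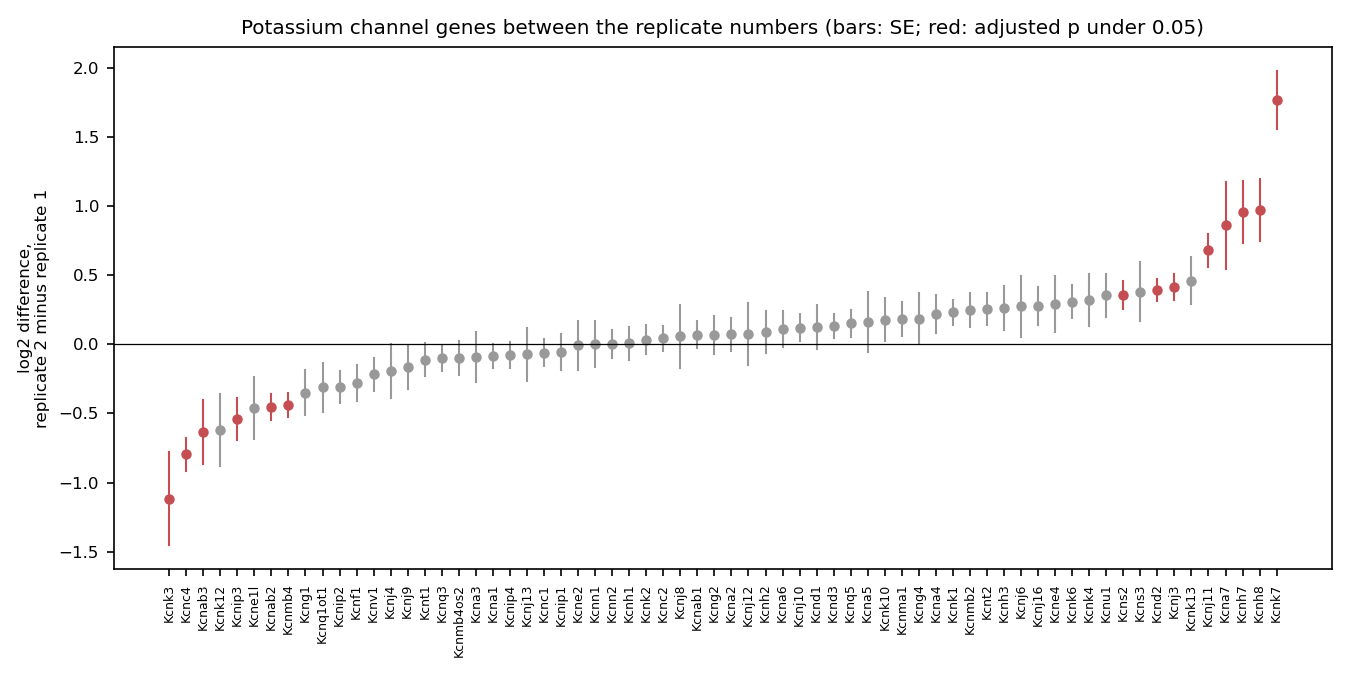
Log2 difference between replicate 2 and replicate 1 over the 5 groups for each of the 66 members, with standard errors (bars). Red marks the 14 with an adjusted p under 0.05, which run from Kcnk3 (-1.12) to Kcnk7 (1.77).

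The proteins that bind, traffic or scaffold these channels gave a like result. Of 26 listed partners 21 were measured, and 0 were called in any of the 9 comparisons, with or without the block. Over both genotypes their median kainate difference was -0.03. The smallest unadjusted p in that comparison belonged to Akap5, a kinase anchor of KCNQ channels, at -0.44 (SE 0.18, adjusted p = 0.613). Amigo1, an adhesion protein that accompanies Kv2 channels, differed by -0.59 (SE 0.27) in wild type and -0.22 in A-CREB mice, with an adjusted p of 0.9999 in each. Of 10 listed pump and transporter genes that move potassium, 6 were measured and 0 were called in any comparison, with a median of -0.03 over both genotypes.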

How the data were processed

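Each array held pooled hippocampal RNA of 3 to 4 mice, in 5 groups of 2 arrays. The deposited values are intensity, the linear signal of each probe set, made with MAS5 in GCOS per the submitters' processing notes, with versions and settings not given in the sources used here. No probe set was scaled again, since the trimmed means were equal (500.002 to 500.003). The number of arrays limits the precision.

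Signals were taken as log2(signal + 22). Of 45101 probe sets, 34945 named 1 gene in the platform table, 27023 ranked in the upper 60% by mean and 23684 of these named 1 gene, giving 13219 genes. A single limma 3.58.1 model (R 4.3.3, intensity trend, 5 residual degrees of freedom) held the 10 arrays and was tested two-sided, with Benjamini-Hochberg adjustment over 13219 genes in each of 9 comparisons and a threshold of 0.05. The added 22 understates changes of dim genes. Levels of different probe sets were not compared, apart from ranking probe sets by level to choose genes.

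An alternative fit took the replicate number as a block. Differences between replicate 2 and 1 correlated between groups (0.517 to 0.642 in all 10 pairs of groups), which is why blocked values are printed. What a number stands for is unlabelled.

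Genes named are members past the threshold in any comparison, the 3 with the smallest p in each, the brightest 2 of each role, a short list of well-known channels, and those at the edge of membership. Genes outside this rule are named as such, apart from the promoter matches, Kcnj2 (on the list but too dim) and members listed by a count or for their other probe sets. The members, lists and tests were chosen with earlier results of these data known. The procedure was tested on simulated data, whose planted differences were larger than most of those found here. Alternatives were other pseudocounts, filters, normalizations, variance trends and probe set rules, and leaving out each array. Promoters are from RefSeq (GRCm38.p6).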

Additional observations from a re-analysis of the deposited data

How the results depend on the processing

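The count of members past the threshold was 0 in all 9 comparisons under pseudocounts of 5.5 and 88, no filter, a filter at the upper 40%, normalization by quantiles or by cyclic loess, a fit without the intensity trend, averaged probe sets, leaving out probe sets that may hit several transcripts (_s_at, _x_at, _a_at), a fit of the compared groups alone, and leaving out each of the 10 arrays (0 to 0). With the replicate number as a block it was 2 over both genotypes (Kcnf1 and Kcng1) and 0 in the other 8 comparisons. With each tested probe set on its own, chosen after seeing the data, it was 0, and 1 with the block (Kcnf1 over both genotypes). With the block and 1 array left out, the count over both genotypes ran from 0 to 3, as Kcng1 alone passed without wild-type saline replicate 1, Kcne4 alone without wild-type kainate replicate 2, Kcnf1 alone without A-CREB saline replicate 1, and Kcne4, Kcng1 and Kcnj3 without A-CREB saline replicate 2. Kcnf1 and Kcng1 passed without either array at 18 mg/kg, and 0 members did without the other 4 arrays. In A-CREB mice at 14 mg/kg that count ran from 0 to 1 (Kcng1 without either wild-type saline array, Kcnf1 without either array at 18 mg/kg), and at 18 mg/kg from 0 to 1 (Kcne4 without either wild-type kainate array). Among 31 pairs of a named gene and a comparison, the sign turned in 3 fits. Kcng1 in wild type became 0.0856 with the block and without wild-type saline replicate 2. Kcnj13 between the doses ran from -1.01 without replicate 1 at 18 mg/kg to 0.0134 without replicate 2, and was 0.0975 without the latter with the block. Of the 31 pairs, 18 moved by over 1.5 times without 1 array in the unblocked fit. Of 34 members with several tested probe sets, 21 had 1 sign on all of them over both genotypes and 13 did not. The cause was not tested.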

Other observations

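Kcnj2, an inward rectifier of the resting potential, was too dim to be a member (mean 5.14 on the log2 scale). It read 4.56 to 4.74 on all 6 arrays of the wild-type and A-CREB saline groups, near the value that a signal of 0 would give. In A-CREB mice it read 6.42 and 4.73 at 14 mg/kg and 5.57 and 6.87 at 18 mg/kg, so that 3 of the 4 arrays were above all others. It was not tested, since its probe set did not pass the filter on level.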
